A study of Rattus norvegicus with 9 samples.

Results

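Transforming growth factor beta (TGF-beta) signaling was described in the rat spinal cord through 10 genes, chosen by symbol for their roles. These were the ligands Tgfb1, Tgfb2 and Tgfb3, the receptors Tgfbr1 and Tgfbr2, the latent binders Ltbp1, Ltbp2, Ltbp3 and Ltbp4, and the intracellular inhibitor Smad7. They are 10 of the 30507 rows of the deposited table, each stood on 1 row, and all 10 passed the filter on low counts. RNA sequencing was performed on the T9-T11 cord of female Sprague-Dawley rats, wild-type and bought at 8 weeks of age, with 3 rats in each of 3 groups killed 35 days post-injury (dpi). The Sham operation was a laminectomy without contusion (the labels call these rats normal and untreated), SCI rats had a laminectomy and a T10 contusion with a plug fixed at the neck and no electrode, and SCI + SCS rats had the contusion and an epidural electrode stimulated at 10 kHz for 2 h per day from 1 dpi. Rats with an electrode and no stimulation were not analysed here, so the electrode and the stimulation cannot be told apart. The labels name a single batch for all 9 libraries.

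TGF-beta ligands are secreted in a latent form, in which the mature dimer is held by its own propeptide. Latent TGF-beta binding proteins attach this latent complex to the extracellular matrix, from which integrins and other factors can release the ligand. The released ligand is bound by Tgfbr2, which recruits and phosphorylates Tgfbr1, and Tgfbr1 then phosphorylates Smad2 and Smad3, which move with Smad4 to the nucleus. Smad7 blocks the receptor complex and is itself a target of the pathway, so that it acts in a feedback loop. In the injured cord the pathway is known for its roles in microglia and macrophages, in astrocytes and in fibroblasts that form scar matrix.

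The genes lie on chromosomes 1, 5, 6, 8, 13 and 18 of the build mRatBN7.2, which the submitters' processing notes name. Tgfb1 (ENSRNOG00000020652) was listed at chr1:81196532-81212847 on the plus strand, Tgfbr1 (ENSRNOG00000007036) at chr5:61653233-61710777 on the plus strand, and Ltbp2 (ENSRNOG00000012094) at chr6:104429947-104526208 on the minus strand. Tgfb2 was at chr13:98160087-98261405, Tgfb3 at chr6:105704236-105726564, Tgfbr2 at chr8:115794537-115883228, Ltbp1 at chr6:20029629-20425349 and Ltbp4 at chr1:82600136-82628134, all on the minus strand, and Ltbp3 at chr1:203029877-203045975 and Smad7 at chr18:68988429-69016765 on the plus strand. All 10 were annotated as protein-coding. The 250 bases before the start of a ligand, a receptor and a latent binder that were higher after injury are shown, 5′ to 3′ on the gene's strand, as RefSeq gives them for the build GRCr8 (Tgfb1 at chr1:90324062-90324311, Tgfbr1 at chr5:66449148-66449397 and Ltbp2 at chr6:110257299-110257548). Capitals mark the Smad-binding element, searched as AGAC on both strands, and the GC box, which Sp factors bind and which was searched as GGGCGG on both strands.
Tgfb1: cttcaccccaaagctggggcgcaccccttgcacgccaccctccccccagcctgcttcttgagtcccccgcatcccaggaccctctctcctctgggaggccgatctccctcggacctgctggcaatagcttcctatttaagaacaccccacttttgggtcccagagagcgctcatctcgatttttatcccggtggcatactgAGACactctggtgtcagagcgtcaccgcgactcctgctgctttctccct
Tgfbr1: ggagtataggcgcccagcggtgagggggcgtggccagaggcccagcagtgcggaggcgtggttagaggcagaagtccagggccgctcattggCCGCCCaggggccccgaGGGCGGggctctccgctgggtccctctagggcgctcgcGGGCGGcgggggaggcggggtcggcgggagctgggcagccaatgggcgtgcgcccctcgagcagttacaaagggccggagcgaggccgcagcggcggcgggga
Ltbp2: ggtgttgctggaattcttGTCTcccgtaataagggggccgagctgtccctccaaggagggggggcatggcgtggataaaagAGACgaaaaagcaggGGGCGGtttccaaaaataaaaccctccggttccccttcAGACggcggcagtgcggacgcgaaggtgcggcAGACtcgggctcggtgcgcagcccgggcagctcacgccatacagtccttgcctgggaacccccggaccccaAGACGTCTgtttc
The stretch before Ltbp2 held 6 Smad-binding elements and 1 GC box, that before Tgfb1 held 1 Smad-binding element and no GC box, and that before Tgfbr1 held 3 GC boxes and no Smad-binding element. RefSeq gave a start for 10 of the 10 genes. A Smad-binding element stood before 7 of them and a GC box before 6, against 84.0% and 30.5% of all 33469 stretches of this length. The AP-1 site, searched as TGAGTCA on both strands, was found before 0 of the 10, against 4.05% of all. In the 3 stretches shown no marked motifs overlapped, and a match describes the letters and not binding.

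Each library held from 62844376 to 88358570 counts on genes. The cord was represented by its defining markers in every library, with summed levels of 17792 to 83454 CPM (counts scaled to the TMM-normalized library size) for 8 oligodendrocyte genes, 8912 to 17435 CPM for 8 astrocyte genes and 681 to 8586 CPM for 9 neuronal genes, and with none of these at 0. Skeletal muscle genes (26 measured of 31 listed) summed to 5468, 190 and 1913 CPM in SCI replicates 1, 2 and 3 and to between 202 and 300 CPM in the other 6 libraries. The number of the 10 genes called in each comparison was the same in a fit without muscle and adipocyte genes. That fit leaves the counts of the 10 genes as they were, so the part of muscle tissue in the results was not tested. Groups were compared over their 6 libraries by the quasi-likelihood test of edgeR, with p adjusted after Benjamini-Hochberg over all genes tested, and a gene rose or fell where the adjusted p was under 0.05. Levels are given in FPKM, which is per length and allows different genes to be compared, and changes are log2FC from the counts with their standard error (SE).

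In the SCI group, 6 of the 10 genes were higher and 1 was lower than in the Sham group. Tgfb1, both receptors, Ltbp2, Ltbp3 and Ltbp4 rose and the inhibitor Smad7 fell, whereas Tgfb2, Tgfb3 and Ltbp1 did not pass the test. Of all 17822 genes tested in this comparison, 49.4% passed (24.3% higher and 25% lower), so that changes were common. The median log2FC was 1.29 over the 10 genes and 0.02 over all genes tested. The 6 that rose also passed |log2FC|>1, as did 26.9% of all genes, and Smad7 did not. In CPM, the libraries of the 2 groups did not overlap for 8 of the 10 genes, against 63.6% of all genes tested.

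**Figure D1:**
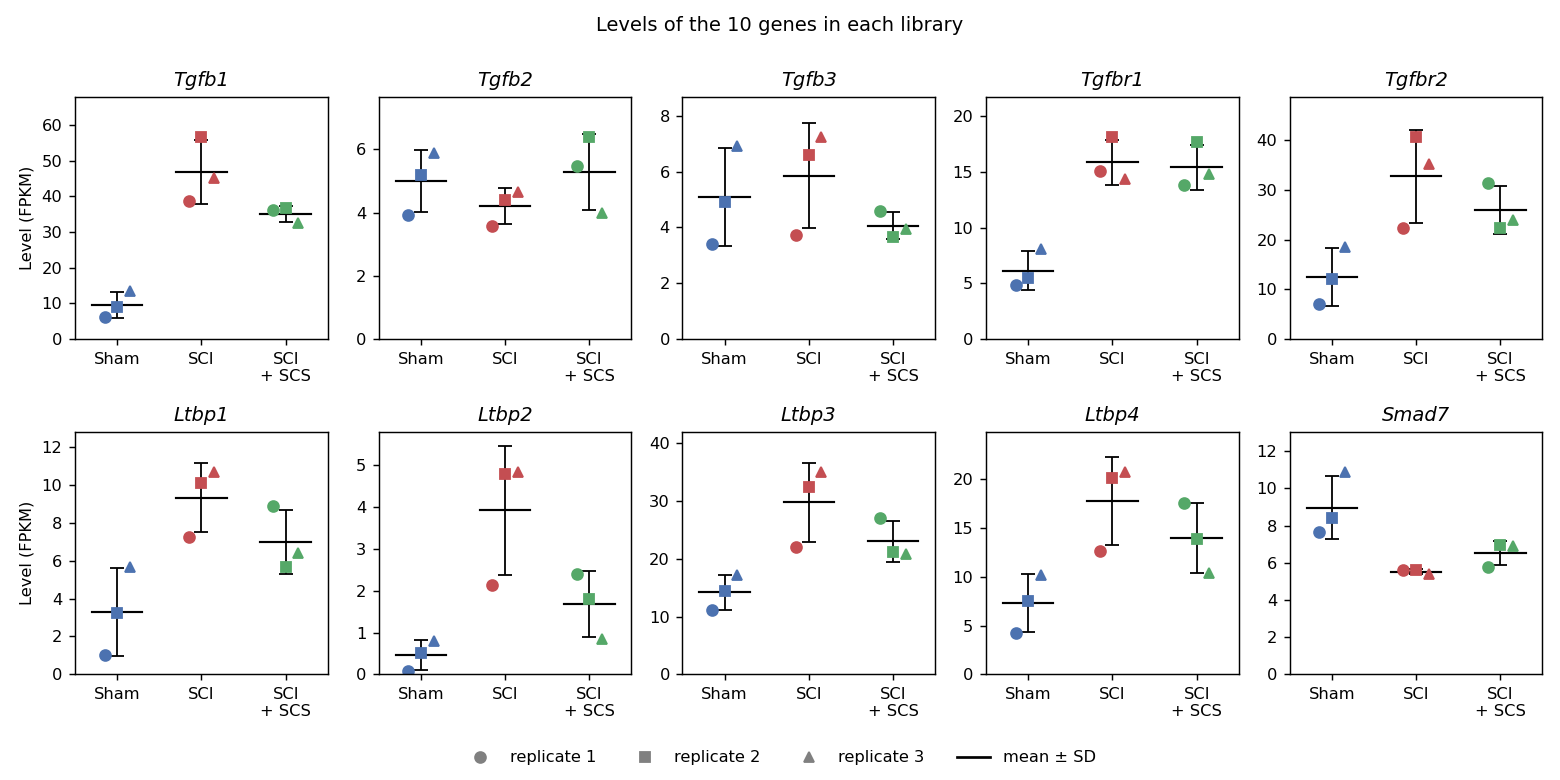
Levels of the 10 genes in FPKM in each of the 9 libraries, with 1 panel per gene, a symbol for each replicate number, and the mean ± SD of each group (n = 3) as a line with bars. Tgfb1 stands at 6.09 to 13.4 FPKM in the Sham group and at 32.4 to 56.6 FPKM in the other libraries, and Smad7 is highest in the Sham group.

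Tgfb1, the ligand that macrophages and microglia are known to make, was measured at 6.09, 8.87 and 13.4 FPKM in the Sham libraries, at 38.7, 56.6 and 45.2 FPKM in the SCI libraries and at 36.1, 36.6 and 32.4 FPKM in the SCI + SCS libraries, in the order of replicates 1, 2 and 3. Every injured library stood above every Sham library, and every SCI + SCS library stood below every SCI library. Tgfb1 rose 4.89-fold from Sham to SCI (log2FC 2.29, SE 0.28, adjusted p = 0.00202 in edgeR). Tgfb2, which astrocytes and neurons are known to make, was at 3.92, 5.18 and 5.89 FPKM in Sham, 3.58, 4.40 and 4.65 in SCI and 5.48, 6.39 and 4.0 in SCI + SCS libraries, and the 3 groups overlapped. Its log2FC from Sham to SCI was -0.26 (SE 0.15, adjusted p = 0.194 in the same edgeR fit). Without Sham replicate 1, Tgfb2 was lower in the SCI group (log2FC -0.39, adjusted p = 0.0393 in edgeR). Tgfb3 was at 3.42, 4.92 and 6.94 FPKM in Sham, 3.72, 6.60 and 7.24 in SCI and 4.6, 3.65 and 3.93 in SCI + SCS libraries. These ranges also overlapped, and its log2FC from Sham to SCI was 0.17 (SE 0.29, adjusted p = 0.650 in edgeR), or -0.04 without Sham replicate 1.

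The ligand transcripts were also compared as shares of their sum. Tgfb1 made up 47.8% ± 3.05 (SD, n = 3) of the summed FPKM of the 3 ligand genes in Sham, 82.3% ± 2.75 in SCI and 79.0% ± 1.18 in SCI + SCS cords. The sum itself was 19.6 ± 6.44, 56.9 ± 10.8 and 44.4 ± 3.50 FPKM (mean ± SD). The Sham shares (45.3 to 51.2%) lay below all shares of the injured groups (78.2 to 84.1%). The difference of 34.6 percentage points between SCI and Sham had p = 0.1 in a two-sided exact permutation test, which is the smallest p that 3 against 3 libraries can give. The difference between SCI + SCS and SCI was -3.34 percentage points (p = 0.2, two-sided exact permutation test), and the shares of these groups overlapped.

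**Figure D2:**
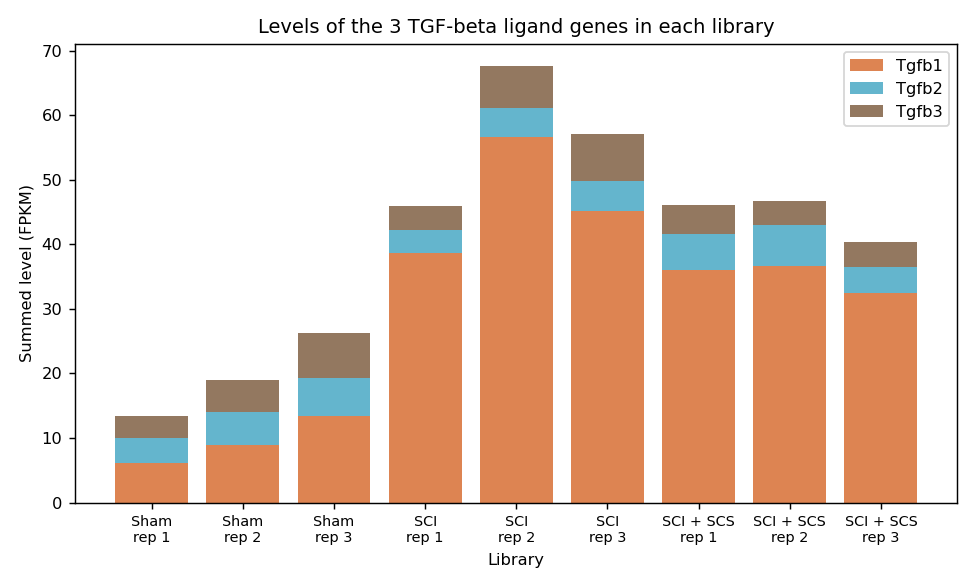
Summed level of the 3 ligand genes in FPKM in each library, with the bars divided into Tgfb1, Tgfb2 and Tgfb3. The sum averages 19.6 FPKM in Sham, 56.9 in SCI and 44.4 in SCI + SCS libraries, the Tgfb1 section is 6.09 to 13.4 FPKM high in Sham and 32.4 to 56.6 in injured libraries, and Tgfb2 lies between 3.58 and 6.39 FPKM.

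Both receptors rose after injury. Tgfbr1, the signaling (type I) receptor kinase, was at 4.88, 5.45 and 8.10 FPKM in the Sham libraries, 15.0, 18.1 and 14.4 in the SCI libraries and 13.8, 17.7 and 14.8 in the SCI + SCS libraries. All injured libraries were above all Sham libraries and the 2 injured groups overlapped. The log2FC from Sham to SCI was 1.36 (SE 0.21, adjusted p = 0.00324 in edgeR). Tgfbr2, the ligand-binding (type II) receptor, was at 6.97, 12.1 and 18.6 FPKM in Sham, 22.4, 40.7 and 35.2 in SCI and 31.4, 22.4 and 24.0 in SCI + SCS libraries. The highest Sham library stood below the lowest SCI library, and the log2FC was also 1.36 with a wider SE of 0.35 (adjusted p = 0.0190 in edgeR). The call for Tgfbr2 was lost without Sham replicate 2 (adjusted p = 0.0679), SCI replicate 2 (0.0619) or SCI replicate 3 (0.0566) in edgeR, with a log2FC between 1.2 and 1.32.

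The latent binders ran from a log2FC of 1.05 to 3.02 between SCI and Sham. Ltbp2, which binds fibrillin and, unlike the other 3, is known not to bind latent TGF-beta, was the lowest of the 10 genes in the Sham group, at 0.091, 0.510 and 0.797 FPKM. Sham replicate 1 had 49 counts on it (exact Poisson 95% interval 36.3 to 64.8, counting error only). It was at 2.14, 4.79 and 4.82 FPKM in the SCI and 2.41, 1.81 and 0.852 FPKM in the SCI + SCS libraries, so that all injured libraries lay above all Sham libraries. It rose 8.11-fold from Sham to SCI (log2FC 3.02, SE 0.71, adjusted p = 0.0136 in edgeR), the largest change of the 10, and missed the threshold without Sham replicate 2 (log2FC 3.06, adjusted p = 0.0501). Leaving out each library gave a log2FC from 2.54 to 3.64 for Ltbp2, the highest without Sham replicate 3. Ltbp1, which anchors latent ligand in matrix, was at 1.0, 3.21 and 5.66 FPKM in Sham, 7.25, 10.1 and 10.6 in SCI and 8.89, 5.66 and 6.40 in SCI + SCS libraries. Its SCI libraries were all above its Sham libraries, but its Sham libraries were far apart from each other, and its log2FC of 1.49 (SE 0.54) had an adjusted p of 0.0568 in edgeR. DESeq2 called it (log2FC 1.48, adjusted p = 0.00662), and over the 16 alternatives of this value the adjusted p ran from 0.00662 to 0.145.

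Ltbp3 and Ltbp4 were the more abundant latent binders. Ltbp3, which is needed for secretion of latent ligand in bone and other tissues, was at 11.1, 14.5 and 17.2 FPKM in the Sham libraries, 22.1, 32.5 and 35.0 in the SCI libraries and 27.1, 21.2 and 20.8 in the SCI + SCS libraries. All its injured libraries were above all Sham libraries, and it rose from Sham to SCI (log2FC 1.05, SE 0.18, adjusted p = 0.00503 in edgeR). Ltbp4, which also takes part in elastic fiber assembly, was at 4.25, 7.5 and 10.2 FPKM in Sham, 12.6, 20.1 and 20.7 in SCI and 17.6, 13.9 and 10.4 in SCI + SCS libraries. Its SCI libraries stood above its Sham libraries with a small gap, and it rose by a log2FC of 1.23 (SE 0.31, adjusted p = 0.0173 in edgeR). The call for Ltbp4 was lost without Sham replicate 2 (adjusted p = 0.0580), SCI replicate 2 (0.0548) or SCI replicate 3 (0.0586) in edgeR.

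Smad7 moved against the other called genes. It was at 7.65, 8.41 and 10.9 FPKM in the Sham libraries, 5.59, 5.60 and 5.40 in the SCI libraries and 5.80, 6.93 and 6.91 in the SCI + SCS libraries. All Sham libraries were above all injured libraries. The SCI libraries had an SD of 0.114 FPKM, but were less close in CPM (27.7 to 33.3, SD 3.04). Smad7 fell by 0.70 on the log2 scale from Sham to SCI (SE 0.15, adjusted p = 0.0101 in edgeR), and this call was kept in all 16 alternatives (adjusted p from 4.41e-04 to 0.0406).

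The order of the levels differed between groups. In the Sham group Ltbp3 (14.3 ± 3.03 FPKM, mean ± SD, n = 3) and Tgfbr2 (12.6 ± 5.84) led, Tgfb1 (9.47 ± 3.71) was in place 3 and Ltbp2 (0.466 ± 0.355) was last. Neighbours in this order overlapped between libraries, except for Ltbp1 and Ltbp2. In the SCI group Tgfb1 was first (46.8 ± 9.08 FPKM), followed by Tgfbr2 (32.8 ± 9.40), Ltbp3 (29.9 ± 6.85), Ltbp4 (17.8 ± 4.5) and Tgfbr1 (15.8 ± 2.0), and Smad7 (5.53 ± 0.114) was in place 8. The libraries of Tgfb1 and Tgfbr2 overlapped, whereas those of Ltbp3 and Ltbp4, of Tgfbr1 and Ltbp1 and of Ltbp1 and Tgfb3 did not. In the SCI + SCS group Tgfb1 was first again (35.1 ± 2.28 FPKM), and there its libraries did not overlap with those of Tgfbr2 (25.9 ± 4.79).

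**Figure D3:**
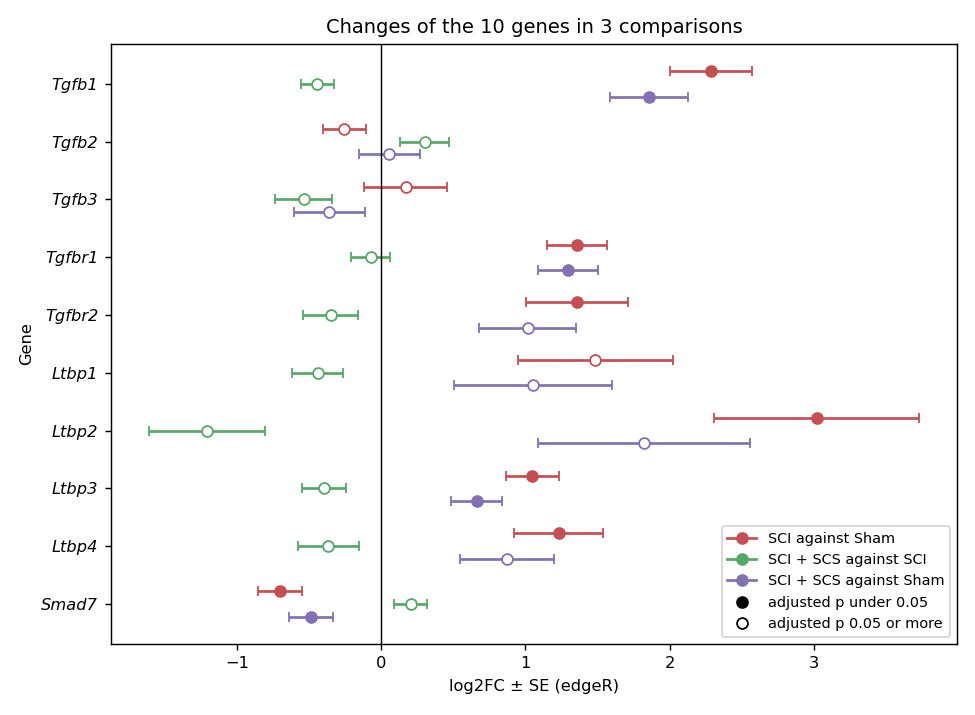
log2FC of the 10 genes in 3 comparisons, with bars for the SE from edgeR and filled points for an adjusted p under 0.05. In SCI against Sham 7 points are filled, in SCI + SCS against Sham 4 and in SCI + SCS against SCI 0, and 8 of the 10 points of the last comparison lie left of 0.

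Whether stimulation, together with the electrode, changed these genes after injury was asked by comparing SCI + SCS with SCI. In edgeR, 0 of the 10 genes passed at an adjusted p under 0.05, where 0.00566% of all 17663 genes tested did so. With edgeR's unadjusted p under 0.05, 5 of the 10 were lower and 0 higher, against 24.2% of all genes in either direction and 10.9% lower. DESeq2 called 2 of the 10, Tgfb1 and Ltbp2, both lower, and 15.7% of all genes that it tested (6.9% lower). The log2FC was negative for 8 of the 10, against 50.7% of all genes, with a median of -0.38 against -0.01 over all genes tested. The 10 are not separate observations. Over the 9 libraries, which share the groups, log2 CPM of Tgfbr2, Ltbp1, Ltbp2, Ltbp3 and Ltbp4 correlated at 0.92 to 0.99 (Pearson r). Tgfb2 and Tgfb3 correlated with these genes at -0.07 to 0.50. In CPM, the libraries did not overlap for 2 of the 10, again Tgfb1 and Ltbp2, against 29.6% of all genes. In FPKM, the Smad7 libraries also stood apart (5.40 to 5.60 in SCI and 5.80 to 6.93 in SCI + SCS), whereas the Ltbp2 libraries overlapped.

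The log2FC of Tgfb1 between the SCI + SCS and SCI groups was -0.44 (SE 0.12, adjusted p = 0.0981 in edgeR and 0.0112 in DESeq2). Leaving out each library in turn gave values from -0.51 to -0.34 for Tgfb1, with adjusted p from 0.0764 to 0.325 in edgeR. For Ltbp2 it was -1.21 (SE 0.40, adjusted p = 0.137 in edgeR and 0.0135 in DESeq2). The lowest SCI library of Ltbp2 (2.14 FPKM, replicate 1) lay below the highest SCI + SCS library (2.41 FPKM, replicate 1) in FPKM and above it in CPM (19.5 against 19.1), so the 2 groups were barely apart on the CPM scale and overlapped on the FPKM scale. The other genes lower at an unadjusted p under 0.05 were Tgfb3 (log2FC -0.54, SE 0.20), Ltbp1 (-0.44, SE 0.18) and Ltbp3 (-0.40, SE 0.15), with adjusted p of 0.163, 0.191 and 0.177 in edgeR. Of the remaining genes, Ltbp4 had a log2FC of -0.37 (SE 0.21), Tgfbr2 of -0.35 (SE 0.19) and Tgfbr1 of -0.07 (SE 0.13). Tgfb2 and Smad7 were on the other side of 0, at 0.30 (SE 0.17) and 0.20 (SE 0.11). Within the latent binders all 4 values were negative, and within the receptors both were.

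Against the Sham group, the SCI + SCS group had 3 of the 10 genes higher and 1 lower, where 32.4% of all 17640 genes tested passed (16.2% higher and 16.2% lower). Of the 10, 2 also passed |log2FC|>1, as did 11.7% of all genes, and DESeq2 called 7 of the 10 and 39.2% of all genes that it tested. This comparison shares the Sham libraries with that of SCI against Sham and the SCI + SCS libraries with that against SCI. Tgfb1 (log2FC 1.86, SE 0.27, adjusted p = 0.00672), Tgfbr1 (1.29, SE 0.21, adjusted p = 0.00836) and Ltbp3 (0.66, SE 0.18, adjusted p = 0.0329) rose in edgeR, and Smad7 fell by 0.49 (SE 0.15, adjusted p = 0.0480 in edgeR). Tgfbr2 (1.02, SE 0.34, adjusted p = 0.0597), Ltbp4 (0.87, SE 0.33, adjusted p = 0.0844) and Ltbp2 (1.82, SE 0.73, adjusted p = 0.0994) did not pass in edgeR and passed in DESeq2 (adjusted p of 0.00962, 0.0267 and 0.0172). Ltbp1 had a log2FC of 1.05 (SE 0.55, adjusted p = 0.177 in edgeR), Tgfb2 of 0.06 (SE 0.21) and Tgfb3 of -0.36 (SE 0.25). In CPM, the libraries did not overlap for 6 of the 10, against 53.2% of all genes tested. In FPKM, Ltbp1 and Ltbp4 were also narrowly apart. Their lowest SCI + SCS libraries were at 5.661 and 10.38 FPKM and their highest Sham libraries at 5.657 and 10.22 FPKM. The calls for Tgfb1 and Tgfbr1 were kept in all 16 alternatives. The call for Ltbp3 was lost without any 1 of the libraries other than Sham replicate 3 (adjusted p up to 0.107), and that for Smad7 without any 1 other than Sham replicate 1 (up to 0.152), in edgeR. Smad7 also missed the threshold in edgeR without a filter on low counts (adjusted p = 0.0553) and in limma (0.0719 and 0.0702). Blocking on replicate number in edgeR ended both calls (adjusted p = 0.112 for Ltbp3 and 0.0759 for Smad7).

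The Sham libraries stood apart from each other in the same way for every one of these genes. Sham replicate 1 was the lowest and Sham replicate 3 the highest of the 3 for all 10, in CPM, an order shown by 28.7% of all genes tested (the reverse order was shown by 23.6%). The lists for fibroblasts, microglia and macrophages, oligodendrocytes, astrocytes, Schwann cells, T cells, adipocytes, and endothelial cells and pericytes all summed in the same order. The skeletal muscle list did not (211, 300 and 212 CPM in Sham replicates 1, 2 and 3). The fibroblast list (8 genes) summed to 423, 1342 and 2205 CPM in Sham replicates 1, 2 and 3 and the list for microglia and macrophages (9 measured of 10) to 332, 469 and 615 CPM, while the neuronal list moved in reverse, at 8586, 5603 and 4040 CPM. The part of these differences in the results was not tested. Without Sham replicate 1, 9 of the 10 genes passed in SCI against Sham, with Ltbp1 and Tgfb2 added, and without Sham replicate 2 only 4 passed, with Tgfbr2, Ltbp2 and Ltbp4 lost. The share of all genes called in these fits was not counted, so the moves cannot be read as particular to the 10. Of the other pathway genes described below, 19 passed without Sham replicate 1 and 8 without Sham replicate 2.

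The marker lists of several cell types differed between the groups as well. The list for microglia and macrophages summed to 332 to 615 CPM in the Sham, 2141 to 2830 in the SCI and 1857 to 2077 in the SCI + SCS libraries, with no measured marker at 0. Of its 9 genes, 6 were higher in SCI than in Sham by the edgeR test. P2ry12 and Tmem119, which mark resting microglia, were not among them (log2FC 0.16 and 0.41), and Cd68, a lysosomal marker of phagocytes, had a log2FC of 5.81. The fibroblast list summed to 423 to 2205, 3854 to 6045 and 2396 to 4002 CPM, and 8 of its 8 genes were higher in SCI than in Sham. Between SCI + SCS and SCI, 0 genes of either list passed in edgeR. At an unadjusted p under 0.05, 4 of 9 microglia and macrophage genes and 7 of 8 fibroblast genes were lower, and DESeq2 called 2 and 7 of them lower. The T cell list (7 measured of 8) summed to 24.2 to 60.3, 132 to 195 and 110 to 148 CPM in the Sham, SCI and SCI + SCS libraries, with 5 of 7 genes higher in SCI than in Sham and 1 of 7 at 0 in Sham replicate 1 and SCI + SCS replicates 2 and 3. The neuronal list summed to 4040 to 8586, 681 to 2219 and 2000 to 3251 CPM and the oligodendrocyte list to 59012 to 83454, 17792 to 33256 and 30873 to 36614 CPM, with 9 of 9 and 7 of 8 genes lower in SCI than in Sham. The astrocyte list summed to 8912 to 13295, 9141 to 13968 and 13670 to 17435 CPM, with 3 of 8 genes lower in SCI than in Sham. Adipocyte genes summed to 3.24 to 9.6, 88.5 to 117 and 27.3 to 43.9 CPM. Between SCI + SCS and SCI, 0 genes of these 5 lists or of the muscle list passed in edgeR. At an unadjusted p under 0.05, 5 of 7 T cell, 3 of 5 adipocyte and 23 of 24 muscle genes were lower, and 4 of 9 neuronal, 4 of 8 oligodendrocyte and 6 of 8 astrocyte genes were higher. DESeq2 called 4, 3 and 23 of them lower and 4, 4 and 4 higher, in the same order. In whole tissue, fewer cells of a type and less RNA per cell cannot be told apart.

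The levels of the 10 genes were also divided by the summed marker lists, a ratio that was chosen after the values were seen. Both lists used summed higher in all SCI than in all Sham libraries, so a gene that rose less than a list has a lower ratio. The ratio was not computed for all genes, so the counts that follow cannot be read as particular to the 10. Against the microglia and macrophage list, the SCI libraries lay below the Sham libraries for 7 of the 10 genes and overlapped with them for 3, Tgfb1, Ltbp1 and Ltbp2. For each 1000 CPM of this list there were 33.6 to 39.9 CPM of Tgfb1 in the Sham, 27.6 to 39.7 in the SCI and 30.8 to 33.1 in the SCI + SCS libraries. For Tgfbr1 there were 88.9 to 118, 46.3 to 54.8 and 54.7 to 65.2 CPM, and for Tgfbr2 123 to 175, 50.6 to 90.5 and 60.7 to 91.3 CPM. Against the fibroblast list, the SCI libraries lay below the Sham libraries for 7 of the 10 genes, overlapped with them for Tgfb1 and Tgfbr1 and lay above them for Ltbp2. What share of all genes lies below or above on this ratio is not known. For each 1000 CPM of the fibroblast list there were 1.81 to 3.05 CPM of Ltbp2 in the Sham, 5.06 to 6.77 in the SCI and 2.60 to 6.06 in the SCI + SCS libraries. For Ltbp1 there were 17.9 to 19.8, 12.9 to 16.0 and 16.5 to 18.2 CPM, for Ltbp3 43.6 to 149, 30.8 to 35.6 and 36.7 to 48.2 CPM, and for Ltbp4 29.2 to 64.1, 20.3 to 22.5 and 24.2 to 34.8 CPM. The part of the marker levels in the changes of these genes was not tested.

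**Figure D4:**
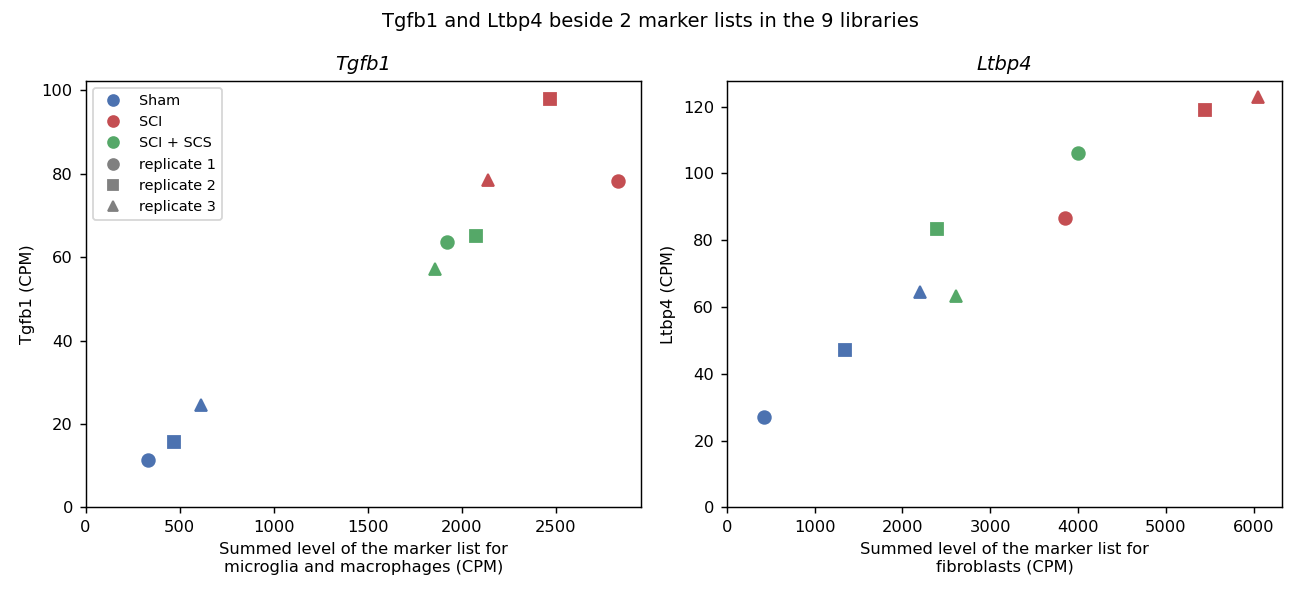
Level of Tgfb1 against the summed level of 9 microglia and macrophage markers, and level of Ltbp4 against the summed level of 8 fibroblast markers, in CPM, with 1 point per library. The Sham libraries (332 to 615 CPM and 423 to 2205 CPM of the lists) stand lowest on both lists, and the injured libraries extend to 2830 and 6045 CPM.

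Of the other genes of the pathway (39 listed by role, 38 in the table and all 38 tested), 19 were higher and 3 were lower in SCI than in Sham, and 16 did not pass. Of all genes tested 49.4% passed, 24.3% higher and 25% lower, and the counts by role are to be read against these shares. The median log2FC of the 38 was 0.84, against 0.02 over all genes tested. Among the co-receptors, 2 of 3 rose. These were Eng, the endothelial co-receptor endoglin (log2FC 0.72, SE 0.09, adjusted p = 0.00206), and Bambi, a decoy receptor without a kinase (0.67, SE 0.19, adjusted p = 0.0261), both in edgeR. The call for Bambi was lost with a replicate block and without any 1 library other than SCI replicate 2 (adjusted p up to 0.0862 in edgeR). Among genes for release and tethering of the latent complex, 5 of 9 rose and 2 fell. Furin, which cleaves the propeptide, had a log2FC of 0.95 (SE 0.12, adjusted p = 0.00198), and Nrros, which tethers latent Tgfb1 on microglia and macrophages, one of 1.68 (SE 0.22, adjusted p = 0.00225), both in edgeR. The others that rose were Thbs1 (2.70, adjusted p = 0.0414), Lrrc32 (1.41, adjusted p = 0.0178) and Itgb5 (0.40, adjusted p = 0.0317) in edgeR. The 2 that fell were Itgav (-0.34, adjusted p = 0.0406) and Itgb8 (-1.25, adjusted p = 0.0172) in edgeR. They encode the subunits of an integrin that activates latent TGF-beta, and were named after their values were seen. The call for Itgav was lost in limma, without a filter on low counts, and without any 1 library other than Sham replicate 1. Those for Thbs1, Lrrc32 and Itgb5 were lost without Sham replicate 2, SCI replicate 2 or SCI replicate 3. Itgb5 was also lost in limma and without Sham replicate 1, and Itgb8 without Sham replicate 2 or SCI replicate 3.

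Matrix genes that bind the latent complex or the ligand rose in 4 of 7 cases, with Fn1, which encodes fibronectin (log2FC 1.92, SE 0.46, adjusted p = 0.0141), and Emilin1, which holds back maturation of the ligand precursor (1.65, SE 0.20, adjusted p = 0.00201), as examples in edgeR. In the main edgeR test none of the signal transducers rose, at 0 of 5, and 1 fell. This was Zfyve9, the endosomal adaptor that presents Smad2 and Smad3 to the receptor (log2FC -0.86, SE 0.15, adjusted p = 0.00463 in edgeR). Before adjustment 1 of the 5 transducers had p under 0.05 in edgeR and was higher, and DESeq2 called 0 higher. The higher one was Smad2, a substrate of Tgfbr1 (log2FC 0.35, SE 0.15, adjusted p = 0.0858 in edgeR). Its SCI and Sham libraries stood apart in CPM and overlapped in FPKM. Smad2 was called higher when all 9 libraries were fitted together and when the fit blocked on replicate, so its call depended on the fit. Of the intracellular inhibitors 4 of 7 rose, among them Tgif1 (1.37, SE 0.14, adjusted p = 0.00143) and Ski (0.85, SE 0.13, adjusted p = 0.00323), which are nuclear corepressors of Smads. Of the known target genes 4 of 7 rose, among them Tgfbi (1.62, SE 0.40, adjusted p = 0.0165) and Tagln, a smooth muscle gene (0.83, SE 0.19, adjusted p = 0.0130), all in edgeR. The calls for Fn1, Tagln and Tgfbi were lost without Sham replicate 2, and that for Tgfbi also without SCI replicate 2 or SCI replicate 3. The target Col1a1 and the matrix gene Dcn also stand on the fibroblast list.

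Between SCI + SCS and SCI, 0 of the 37 pathway genes tested passed in edgeR, 9 were lower and 0 higher at an unadjusted p under 0.05, and DESeq2 called 5, all lower. Of all genes tested, 24.2% had an unadjusted p under 0.05 (10.9% lower), and DESeq2 called 15.7% (6.9% lower). The median log2FC of the 37 was -0.15, against -0.01 over all genes tested. The smallest p-values belonged to 3 matrix genes. Emilin1 had a log2FC of -0.68 (SE 0.16, adjusted p = 0.0909 in edgeR and 0.00276 in DESeq2), and its SCI + SCS libraries (7.98 to 11.9 FPKM) stood below its SCI libraries (12.2 to 17.2 FPKM). Bgn, which encodes the ligand-binding proteoglycan biglycan, had one of -0.85 (SE 0.22, adjusted p = 0.0979 in edgeR and 0.00259 in DESeq2), and Fn1 one of -0.90 (SE 0.29, adjusted p = 0.128 in edgeR and 0.0125 in DESeq2). The inhibitors Tgif1 (-0.06, SE 0.15) and Ski (-0.05, SE 0.08) and the decoy Bambi (-0.04, SE 0.17) were close to 0. They were named for their p in SCI against Sham and the 3 matrix genes for theirs in this comparison, so the 2 sets cannot be contrasted. Over all 7 matrix genes the log2FC ran from -0.90 to 0.35 (median -0.68). Over all 7 listed intracellular inhibitors it ran from -0.29 to 0.18 (median -0.05). In SCI + SCS against Sham, 11 of the 37 were higher and 3 lower, against 32.4% of all genes called (16.2% higher and 16.2% lower), with a median log2FC of 0.65.

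**Figure D5:**
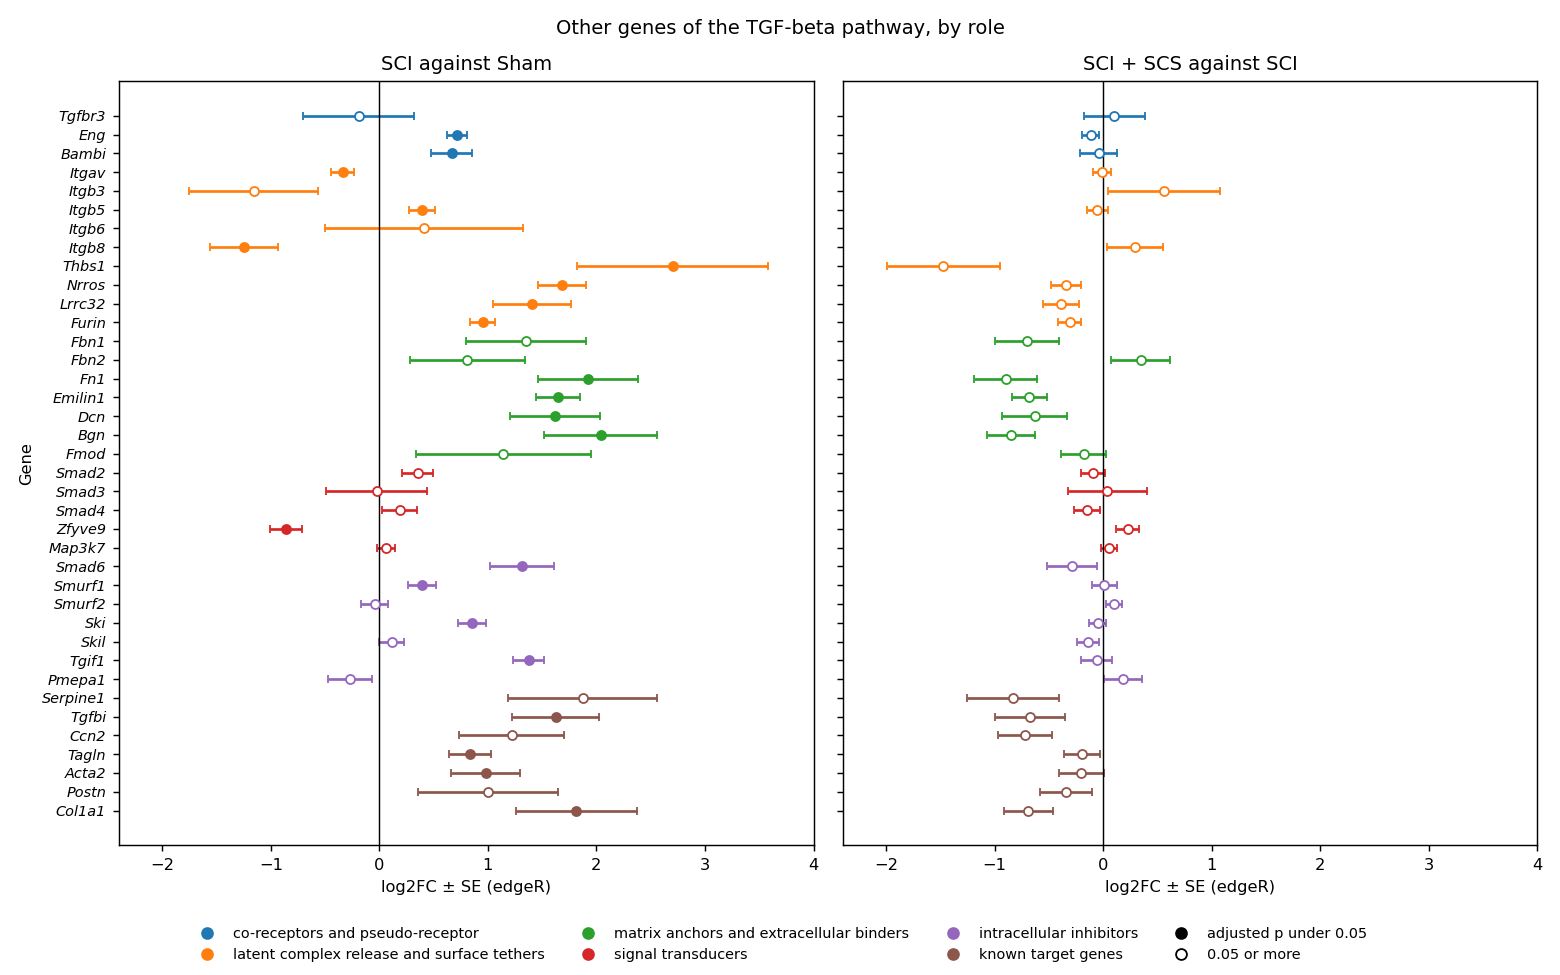
log2FC of 38 other genes of the TGF-beta pathway in SCI against Sham and of 37 in SCI + SCS against SCI (Itgb6 was not tested there), colored by role, with bars for the SE from edgeR and filled points for an adjusted p under 0.05. In the first panel 22 points are filled, and in the second panel 0 are, with Thbs1 farthest to the left at -1.47.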

How the data were processed

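Poly(A) RNA of the 9 cords was sequenced as paired-end reads, and the authors deposited raw counts per gene for each library. They also deposited FPKM values (counts per length, scaled to the library total). The submitters' processing notes name fastp 0.23.2, HISAT2 2.2.1 and mRatBN7.2. The counting program, annotation and use of strand are not given in the sources used here, so reads of overlapping genes cannot be assigned with certainty. The table has 30507 rows, 22777 with a count. In it, 494 identifiers stand on more than 1 row (1081 rows), none of them a gene of the 10.

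Samples were grouped by the labels. The main test was edgeR 4.0.16 in R 4.3.3 (quasi-likelihood F test with Benjamini-Hochberg adjustment, TMM, default filter on low counts, 6 libraries per comparison). The SE is |log2FC| divided by the square root of F. DESeq2, a tool that the study names, was run here in version 1.42.0 as an alternative, together with other filters and scalings, all 9 libraries in one fit, a replicate block, summed identifiers, each library left out, and limma 3.58.1 on log2(FPKM + 1) and log2(FPKM + 0.1), a scale that understates changes of low genes, for rows with a mean of at least 0.1 FPKM. The fits were tested on simulated counts.

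The 10 genes, gene lists and tests were chosen with earlier results of these data known. Named pathway genes are the 2 of each role with the smallest p among those called in SCI against Sham, and the 3 of each list with the smallest p in SCI + SCS against SCI. For each ligand, the 3 genes with the highest correlation of log2 CPM over 9 libraries were named. Replicates are rats numbered 1 to 3 in each group by the labels, which name no link between same numbers. Intervals cover counting error only, as the reads carry no molecular identifiers and are not separate molecules. Replicates differed beyond counting noise (chi-square per degree of freedom at least 43.7).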

Additional observations from a re-analysis of the deposited data

How the results depend on the processing

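Among the values of the 10 genes over 16 alternatives, 144 of 160 in SCI against Sham, 157 of 160 in SCI + SCS against SCI and 134 of 160 in SCI + SCS against Sham kept their direction and side of the threshold. The cause of the exceptions was not tested, and fits without a library have fewer samples. In SCI + SCS against SCI the main fit called 0.00566% of all 17663 genes tested, so values that stayed uncalled there say little about the 10 genes. With DESeq2, SCI + SCS against SCI gave 2 of the 10 genes, 1 past the DEG thresholds, 5 pathway genes and 5 activin and BMP genes in place of 0, and SCI + SCS against Sham gave 7 of the 10 (4 without) and 4 past the DEG thresholds (2 without). Same-numbered libraries had correlations of their deviations from -0.36 to 0.27. These values were set against no reference, so they cannot tell whether rats of the same number were paired. With the replicate number as a block, SCI + SCS against Sham gave 2 of the 10 (Ltbp3 and Smad7 were lost), 4 pathway genes (14 without the block) and 0 activin and BMP genes (7 without), and SCI against Sham gave 8 of the 10. The share of all genes called with this block was not counted.

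Leaving out each library gave, in SCI against Sham, 4 to 9 of the 10 genes (fewest without Sham replicate 2), 3 to 7 past the DEG thresholds (3 also without SCI replicate 3) and 8 to 20 pathway genes (8, 12 and 10 without Sham replicate 2, SCI replicate 2 and SCI replicate 3, 22 with all). In SCI + SCS against SCI it gave 0 of the 10 and 0 to 1 pathway gene (Emilin1, without SCI + SCS replicate 1). In SCI + SCS against Sham it gave 2 to 6 of the 10 (2 without Sham replicate 2 or any SCI + SCS library), 2 to 5 past the DEG thresholds (5 without Sham replicate 3), 5 to 19 pathway genes (5 or 6 without Sham replicate 2 or SCI + SCS replicate 1 or 2) and 1 to 7 activin and BMP genes (1 without Sham replicate 2 or SCI + SCS replicate 1, 3 without SCI + SCS replicate 2). The sign changed for Tgfb3 in SCI against Sham (log2FC -0.040 without Sham replicate 1, leave-one-out values from -0.040 to 0.45), for Tgfb2 in SCI + SCS against Sham (-0.08 without Sham replicate 1 and -0.11 without SCI + SCS replicate 2, from -0.11 to 0.22), and in SCI + SCS against SCI for Tgfbr1 (0.00067 without SCI + SCS replicate 1, from -0.19 to 0.00067), Tgif1 (0.015 without SCI + SCS replicate 1, from -0.19 to 0.015) and Bambi (0.056, 0.0066 and 0.00043 without SCI replicate 1, SCI replicate 3 and SCI + SCS replicate 1, from -0.20 to 0.056, and 0.0097 and 0.013 with limma on log2(FPKM + 1) and log2(FPKM + 0.1)). No value of these was called. For the fits without a library, the share of all genes called was not counted.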

Other observations

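The sister branches of activins and bone morphogenetic proteins (BMP), which share the Smad mechanism, were listed with 29 genes, of which 28 were in the table. In SCI against Sham, 8 of the 28 were higher and 5 lower in edgeR (adjusted p under 0.05), with a median log2FC of 0.25. Of all genes tested 49.4% passed, 24.3% higher and 25% lower, so the share called was near that of all genes. Gdf15, a stress-induced ligand, was at 0.093 to 0.178 FPKM in the Sham, 2.45 to 8.08 in the SCI and 1.59 to 6.43 in the SCI + SCS libraries. It rose 32.5-fold from Sham to SCI (log2FC 5.02, SE 0.50, adjusted p = 0.00137 in edgeR). This fold rests on low Sham levels (0.141 to 0.250 CPM), and Gdf15 dropped out where at least 10 counts were required in every library. Over 15 alternatives its log2FC ran from 2.27 to 5.31. Gdf10 rose too (log2FC 2.07, SE 0.36, adjusted p = 0.00473 in edgeR). The secreted antagonists Fst, which encodes the activin binder follistatin (2.58, SE 0.44, adjusted p = 0.00468), and Chrd, which encodes the BMP binder chordin (1.37, SE 0.24, adjusted p = 0.00471), rose in edgeR. Of the receptors, Acvrl1, found mainly on endothelium, rose (0.75, SE 0.10, adjusted p = 0.00258), and Bmpr1b fell by 1.51 (SE 0.23, adjusted p = 0.00312) in edgeR. The BMP target Id1 rose (1.16, SE 0.15, adjusted p = 0.00231) and the transducer Smad9 fell by 1.29 (SE 0.13, adjusted p = 0.00137) in edgeR.

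Between SCI + SCS and SCI, 0 of the 27 activin and BMP genes tested passed in edgeR, 3 were higher and 5 lower at an unadjusted p under 0.05, and DESeq2 called 5 (2 higher and 3 lower). These shares were near those of all genes, of which 24.2% had an unadjusted p under 0.05 and 15.7% were called by DESeq2. The smallest p-values belonged to Id3, a BMP target (log2FC -0.40, SE 0.10, adjusted p = 0.0959 in edgeR), Gdf10 (-1.14, SE 0.30, adjusted p = 0.0997) and Bmpr1a, a type I BMP receptor (0.51, SE 0.14, adjusted p = 0.108). In SCI + SCS against Sham, 6 of 28 were higher and 1 lower in edgeR, against 32.4% of all genes called. Id3 is a target of BMP signals that was at 27.8 to 68.8 FPKM in the Sham, 168 to 204 in the SCI and 136 to 155 in the SCI + SCS libraries, so the 3 groups did not overlap.

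The genes whose log2 CPM was most like that of each ligand over the 9 libraries, among 14073 genes, are a description, since the libraries share the groups. For Tgfb1 these were Ptpn6, a phosphatase of blood cells (Pearson r = 0.998), B2m, the light chain of MHC class I (0.998), and Casp4, an inflammatory caspase (0.997). For Tgfb2 they were LOC134478878 (0.942), Ankra2 (0.925) and Shroom1 (0.915), and for Tgfb3 they were Rftn1 (0.960), Ngly1 (0.949) and Dek (0.941).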
